A study of Mus musculus with 15 samples.

Results

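Spleens of mice with erythroid leukemia were compared with spleens of mice with T-cell leukemia over all genes that the arrays detected. The comparison used 4 erythroid mice on 5 arrays and 7 T-cell mice on 8 arrays, which is 13 of the 15 arrays of the series, and 10474 genes were tested. Of these, 10275 lay outside a list of T-cell genes and a list of red-cell genes, and they are described in most detail. The T-cell mice were 2, 5, 4-1, 2-2, 5-1, 4-2 and 5-3, and the erythroid mice were 2-3, 5-5, 2-3-2 and 2-3-3. All mice of both groups came from a model that overexpresses Cbx7, so there was no group without the transgene. The labels give neither strain, age nor the promoter behind the transgene. RNA came from unsorted spleen cells, amplified from small inputs and hybridised as biotin-labelled cDNA to Illumina bead arrays. In such samples, fewer cells of a type and less RNA per cell cannot be told apart.

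Cbx7 is a chromobox protein of polycomb repressive complex 1, which binds trimethylated histone H3 and keeps developmental genes silent. Erythroid precursors make hemoglobin and a specialised membrane skeleton, then shut down most other transcription, clear their organelles and condense the nucleus before it is expelled. T cells are long-lived and mobile. They rely on antigen receptor signalling, cytokine receptors, and continuous remodelling of the actin skeleton as they move through tissue. Leukemias of both lineages fill the mouse spleen, an organ that also makes red cells in adult mice.

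The labels were checked against 5 defining genes. Cd3d, a CD3 chain of the antigen receptor, had a log2 normalised intensity (the log2 signal below) of 8.48 to 10.93 in the T-cell mice, with a median of 10.74. In the erythroid mice 2-3, 5-5, 2-3-2 and 2-3-3, in this order here and below, it was 6.35, 7.27, 4.37 and 5.03. Cd3g and Tcf7, a second receptor chain and a T-cell transcription factor, likewise separated all mice of the types. The reverse held for Ppox, an enzyme of heme synthesis, which was at 4.89 to 6.94 (median 5.59) in T-cell and 8.00, 9.15, 8.85 and 8.22 in erythroid mice. Kel, a blood group protein of the red cell surface, was at 9.30, 10.09, 9.88 and 9.81 in erythroid mice. Its T-cell range was wide, from 4.54 to 8.58, and the highest T-cell value came from mouse 2-2. The arrays do not show the transgene: the Cbx7 probe lay near background in T-cell and erythroid mice alike, at 4.81 ± 0.19 (SD, n = 7) in the former mice and 4.54 ± 0.12 (SD, n = 4) in the latter.

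Mouse 2-2 stood between the types. Over the 77 tested genes of the T-cell list, its mean log2 signal was 6.49, the lowest of the T-cell mice, whose highest mean was 7.86 in mouse 4-2. The erythroid means ran from 5.52 to 5.89. Over the 122 tested red-cell genes, the mean of mouse 2-2 was 8.49, equal to that of erythroid mouse 2-3-2, while mouse 4-2 had 6.16. The next T-cell means were 8.06 in mouse 5-1 and 7.60 in mouse 4-1, and the erythroid means reached 9.15. The T-cell spleens thus differed among themselves in red-cell signal by more than the erythroid spleens did. The part of this signal in the single-gene results below was not tested. Leaving out mouse 2-2, however, raised the number of genes past the threshold to 595 higher and 830 lower.

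**Figure D1:**
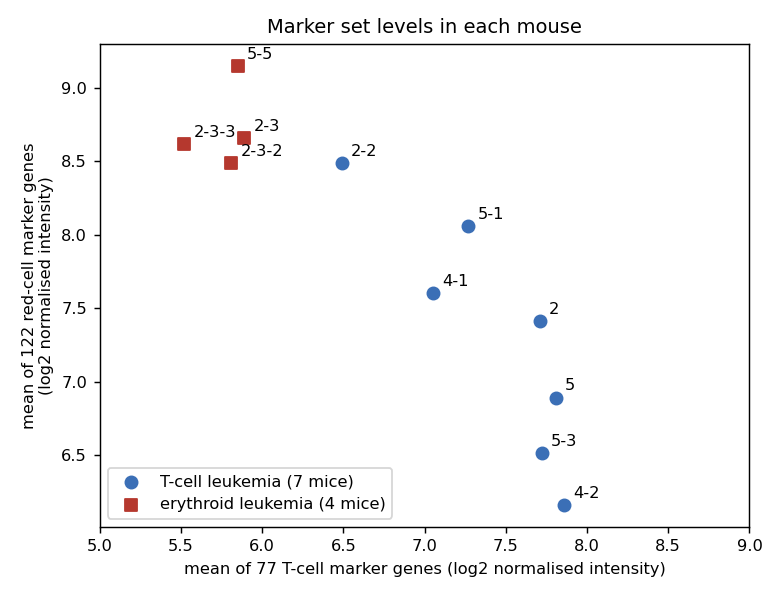
Mean log2 normalised intensity of the 77 T-cell genes (x axis) against that of the 122 red-cell genes (y axis), with 1 point for each mouse. The 4 erythroid mice lie at 5.52 to 5.89 on the x axis, and T-cell mouse 2-2 reaches the same red-cell mean, 8.49, as erythroid mouse 2-3-2.

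Array quality differed too. Of 25697 probes, between 11278 and 12944 were detected (detection p under 0.05) on arrays of T-cell mice and between 7382 and 12605 on those of erythroid mice. The weakest were the second array of mouse 5-5, with 7382, and the array of mouse 2-3-2, with 7554. Values of the first and second arrays of mouse 5-5 correlated at r = 0.834 across genes, against 0.972 for mouse 5-1, and each pair was averaged. Without these 2 weak arrays, 232 genes were higher and 359 lower, and these included 146 of the 404 higher and 324 of the 671 lower genes called with all arrays.

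With all mice, 1075 of 10474 genes (10.3%) passed an adjusted p of 0.05 in limma's linear model, where the adjustment is that of Benjamini and Hochberg over all genes tested. In erythroid leukemias 404 genes (3.86%) were higher and 671 (6.41%) lower. Outside both lists, 360 of 10275 genes (3.5%) were higher and 628 (6.11%) lower. The T-cell and red-cell lists held only 77 and 122 tested genes, so they made up few of the calls in either direction. Within the lists calls were far more frequent: 54.5% of the T-cell genes were lower and 34.4% of the red-cell genes higher. These 360 and 628 genes were 89.1% of all genes called higher and 93.6% of all genes called lower. Their sizes were unequal. The median change was 1.33 on the log2 scale for the higher genes and -1.62 for the lower genes, and 59 of the higher but 184 of the lower genes changed by at least 4-fold. Only 2 of the higher genes reached 8-fold, against 35 of the lower genes. The lowest erythroid mouse exceeded the highest T-cell mouse for 264 genes (2.52% of those tested), and the reverse held for 490 (4.68%). Outside the lists, 186 higher and 367 lower genes both passed the threshold and did not overlap. The counts rested on few mice: they fell to 141 higher and 319 lower without erythroid mouse 5-5, and rose to 595 higher without T-cell mouse 2-2 and to 893 lower without erythroid mouse 2-3. Mice whose titles start with the same number may not be independent, and the p-values would then understate the error. With mice 2-3, 2-3-2 and 2-3-3 averaged into 1 value, 281 genes were higher and 562 lower, among them 199 of the 404 and 402 of the 671.

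**Figure D2:**
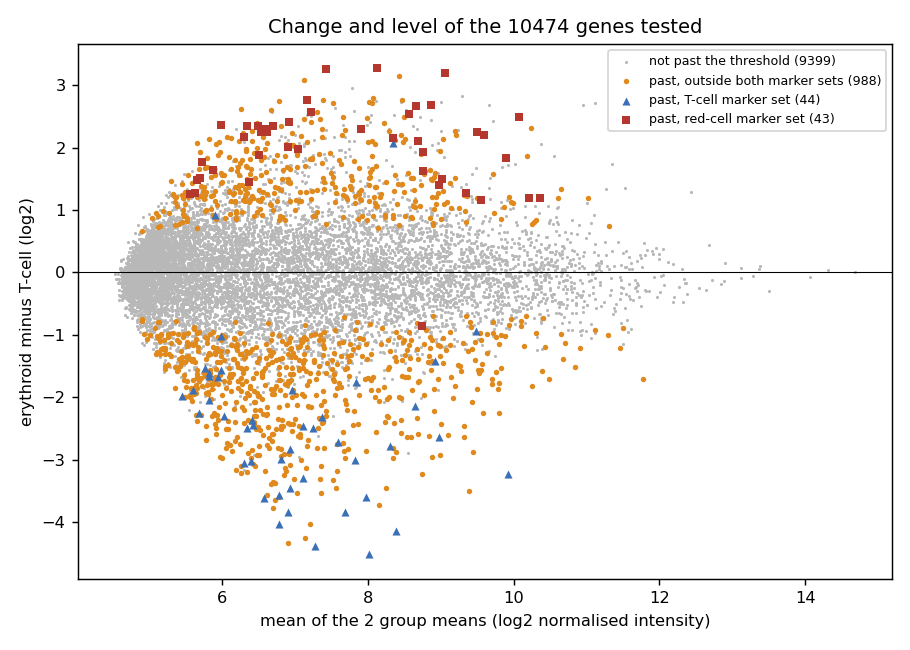
Erythroid minus T-cell change (log2, y axis) against the mean of both group means (log2 normalised intensity, x axis) for the 10474 genes tested, with 1 point for each gene. The 988 orange genes outside both lists reach further down than up, and the blue T-cell and red red-cell genes lie mostly below and above 0.

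The 2 directions held up unequally to the way arrays were scaled. Quantile normalization, used throughout, gives every array the same distribution. Scaling each array to its median instead left 44 genes higher (0.42%) and 387 lower (3.69%), with a median change of -0.22 over all genes. Cyclic loess gave 365 (3.48%) and 444 (4.24%). Outside the lists, 37 of 360 higher genes and 242 of 628 lower genes passed under all 3 scalings, and all 360 and 628 kept their sign under median scaling. The array numbers in the labels fall into 1 to 8 and 9 to 16, which the labels do not explain. Within arrays 1 to 8 (2 erythroid and 5 T-cell mice), limma called 0 genes, while 893 higher and 910 lower genes had an unadjusted p under 0.05. Within arrays 9 to 16 (3 erythroid and 3 T-cell mice) it called 44 higher and 135 lower genes, and with this split as a block it called 469 and 649.

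The 2 lists themselves moved apart. Of the 77 T-cell genes, 42 were lower and 2 higher, with a median change of -1.62 against -0.03 for all genes tested. The 2 that were higher were Cd44, an adhesion receptor of many blood cells (2.08 ± 0.42 SE, adjusted p = 0.0112), and Nrarp, a feedback inhibitor of Notch signalling (0.93 ± 0.25, adjusted p = 0.0347). Of the 122 red-cell genes, 42 were higher and 1 lower, with a median change of 1.50. The lower gene was Stat5b (-0.86 ± 0.25 SE, adjusted p = 0.0460), a signal transducer used by cytokine receptors of both lineages. All 3 exceptions lost the threshold under median scaling.

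Among genes outside the lists, the 16 with the largest increase without overlap between mice rose by 2.27 to 3.08 on the log2 scale (4.81-fold to 8.48-fold). Adjusted p-values ran from 0.00681 to 0.0353. Non-overlap was a condition for naming them, so it is no result. In 15 of these 16 genes the highest T-cell value was that of mouse 2-2. Under median scaling 5 of the 16 passed the threshold, and without the 2 weakest arrays 10 did. With mice 2-3, 2-3-2 and 2-3-3 averaged 8 passed, with the number of detected probes as a covariate 2, and with the leading number as a fixed block 1. Within arrays 1 to 8 the rise was at least 1.56 for each gene and 0 of 16 passed, and within arrays 9 to 16 it was at least 2.55 and 3 passed.

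The first group of these genes belongs to the response to stress and to the control of translation. Nupr1, a small nuclear protein induced by many stresses, was at 8.82, 8.38, 9.30 and 8.16 in the erythroid mice. In the T-cell mice it lay at 4.41 to 7.98 (median 4.80), and it was detected on 3 of 8 T-cell arrays, so most T-cell spleens were at background. The change was 3.08 ± 0.63 (SE, limma adjusted p = 0.0122). Ppp1r15a, which directs protein phosphatase 1 to the initiation factor eIF2 and so restarts translation after stress, was at 7.90, 9.98, 9.19 and 8.46 against 4.74 to 7.73 (median 5.80). Its rise was 2.71 ± 0.56 (adjusted p = 0.0125). Cpeb4, which binds polyadenylation elements of mRNAs and represses translation in maturing mouse erythroblasts, stood at 8.71, 9.92, 9.96 and 8.92 against 5.71 to 8.07 (median 6.24). It rose by 2.74 ± 0.50 (adjusted p = 0.00798) and was among the 5 that passed under median scaling (adjusted p = 0.0306).

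Other members of the stress pathway were examined as a list. Of 25 tested genes of the integrated stress response, 4 were higher and 1 lower, or 16.0% and 4.00% beside 3.86% and 6.41% of all genes. The median change was 0.69, and none of the 4 passed under median scaling. Besides Nupr1 and Ppp1r15a they were Ppp1r15b, the constitutive counterpart of Ppp1r15a (1.15 ± 0.28 SE, adjusted p = 0.0244), and Eif2ak1. Eif2ak1 is the heme-regulated kinase that phosphorylates eIF2 in red-cell precursors. It was at 9.24, 10.24, 9.85 and 9.40 in erythroid mice and 7.10 to 8.89 in T-cell mice, a rise of 1.64 ± 0.34 (adjusted p = 0.0119). The lower member was Ddit4, an inhibitor of the mTOR kinase complex 1, which fell by 1.71 ± 0.32 SE (adjusted p = 0.00834) and passed under median scaling as well. Aars, the alanyl-tRNA synthetase, was the 1 of 19 tRNA synthetases to pass, with 1.71 ± 0.32 (adjusted p = 0.00917).

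A second group acts in signalling. Map4k5, a kinase of the Ste20 group upstream of Jun kinases, was at 9.46, 10.03, 9.09 and 9.09 against 4.72 to 8.89 (median 7.01), a rise of 2.72 ± 0.66 (SE, adjusted p = 0.0248). Its range in T-cell mice was more than 4 log2 units, with mouse 4-2 lowest and mouse 2-2 highest. Dapk2, a calmodulin-dependent death-associated kinase, showed the same order of extremes, from 5.37 in mouse 4-2 to 8.88 in mouse 2-2, against 9.53, 10.34, 9.65 and 9.45. It rose by 2.50 ± 0.67 (adjusted p = 0.0353) and lost the threshold under median scaling (adjusted p = 0.154), and its second probe, at 0.96, did not pass (adjusted p = 0.0512).

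Transcription factors and proteins of the nucleus formed another group. Rfx2, a factor known for cilium and sperm genes, was close to background in T-cell mice (4.57 to 6.73, median 4.84) and at 7.07, 7.90, 8.97 and 7.93 in erythroid mice. The rise of 2.60 ± 0.48 (SE, adjusted p = 0.00834) passed under median scaling (adjusted p = 0.0364). Mxi1, a Max partner that opposes Myc, was at 9.31, 9.43, 9.75 and 9.19 against 6.04 to 8.45 (median 6.80), with a rise of 2.27 ± 0.43 (adjusted p = 0.00943). A pair of genes of smaller size but small adjusted p belong here. Snrnp25, a protein of the minor spliceosome, was at 9.11, 9.80, 10.20 and 9.54 against 7.69 to 8.57 (median 8.25). It rose by 1.52 ± 0.25 (adjusted p = 0.00546), and its T-cell values spanned less than 1 log2 unit. Narf, which binds prelamin A, rose by 2.10 ± 0.36 (adjusted p = 0.00597), from 4.66 to 6.45 in T-cell mice to 7.32, 7.19, 8.20 and 7.12.

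A further group covered ubiquitin, membranes and the cell skeleton. Fbxo30, an F-box subunit of ubiquitin ligases, was at 8.13, 9.12, 8.22 and 8.28 against 4.53 to 7.28 (median 6.49). Asb1, a substrate adaptor with a SOCS box, was at 7.42, 8.60, 7.88 and 8.04 against 4.46 to 7.16 (median 5.48). Otub2, a deubiquitinase, was at 8.01, 10.14, 8.74 and 8.41 against 5.97 to 7.64 (median 6.39). The rises were 2.41 ± 0.53, 2.34 ± 0.47 and 2.28 ± 0.40 (SE), with adjusted p = 0.0160, 0.0114 and 0.00717, and only Otub2 of the 3 passed under median scaling (adjusted p = 0.0387). Atp6v0a1, a membrane subunit of the proton pump of lysosomes, stood at 7.66, 8.84, 8.73 and 8.19 against 5.05 to 7.22 (median 5.73). It was the 1 of 15 pump subunits past the threshold (2.47 ± 0.43, adjusted p = 0.00681), also under median scaling (adjusted p = 0.0442). This rests on 1 probe, since its second probe changed by 0.12 (adjusted p = 0.736). Tlcd1, a membrane protein that affects membrane fluidity, was the 1 gene of the 16 whose highest T-cell mouse was 4-2. It was at 6.69, 8.44, 8.93 and 7.42 against 4.63 to 6.53 (median 5.23), a rise of 2.35 ± 0.47 (adjusted p = 0.0112; 0.0133 under median scaling).

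Enzymes that modify lipids or attach them to proteins were also among the higher genes. Zdhhc14, a palmitoyl transferase, was at 6.89, 7.40, 7.28 and 7.21 in erythroid mice and 4.49 to 6.18 (median 4.72) in T-cell mice. Its change of 2.15 ± 0.32 (SE) had an adjusted p of 0.00303, but 0.0581 under median scaling. Lpin2, a phosphatidate phosphatase of glycerolipid synthesis, was at 6.70, 7.61, 7.43 and 6.91 against 4.41 to 6.03 (median 4.62), a rise of 2.18 ± 0.34 (adjusted p = 0.00387). Both were near background in most T-cell mice. Other genes of the 16 were Spire1, an actin nucleator (2.50 ± 0.60, adjusted p = 0.0237), Cdr2, an antigen of paraneoplastic cerebellar disease (2.48 ± 0.62, adjusted p = 0.0271), and a probe listed as Clca1 (2.75 ± 0.64, adjusted p = 0.0209), a symbol that has stood for more than 1 chloride channel regulator.

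The 16 genes with the largest decrease outside the lists fell by 3.10 to 4.26 on the log2 scale, with adjusted p-values of 0.000528 to 0.0114. All 16 passed under median scaling, under cyclic loess, without the 2 weakest arrays and with each mouse left out in turn. In the smaller fits, 9 of 16 passed within arrays 9 to 16 and 0 of 16 within arrays 1 to 8, where the falls were still 2.05 to 3.62 and the lowest adjusted p was 0.0892. The lowest T-cell value came from mouse 2-2 in 9 genes and from mouse 5-1 in 5. Each of the 16 was detected on all 8 T-cell arrays. For Ipcef1, which no erythroid array detected, the fold is only a bound, given below. With mice 2-3, 2-3-2 and 2-3-3 averaged into 1 value 14 of the 16 passed, and with the leading number as a fixed block 13 did.

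**Figure D3:**
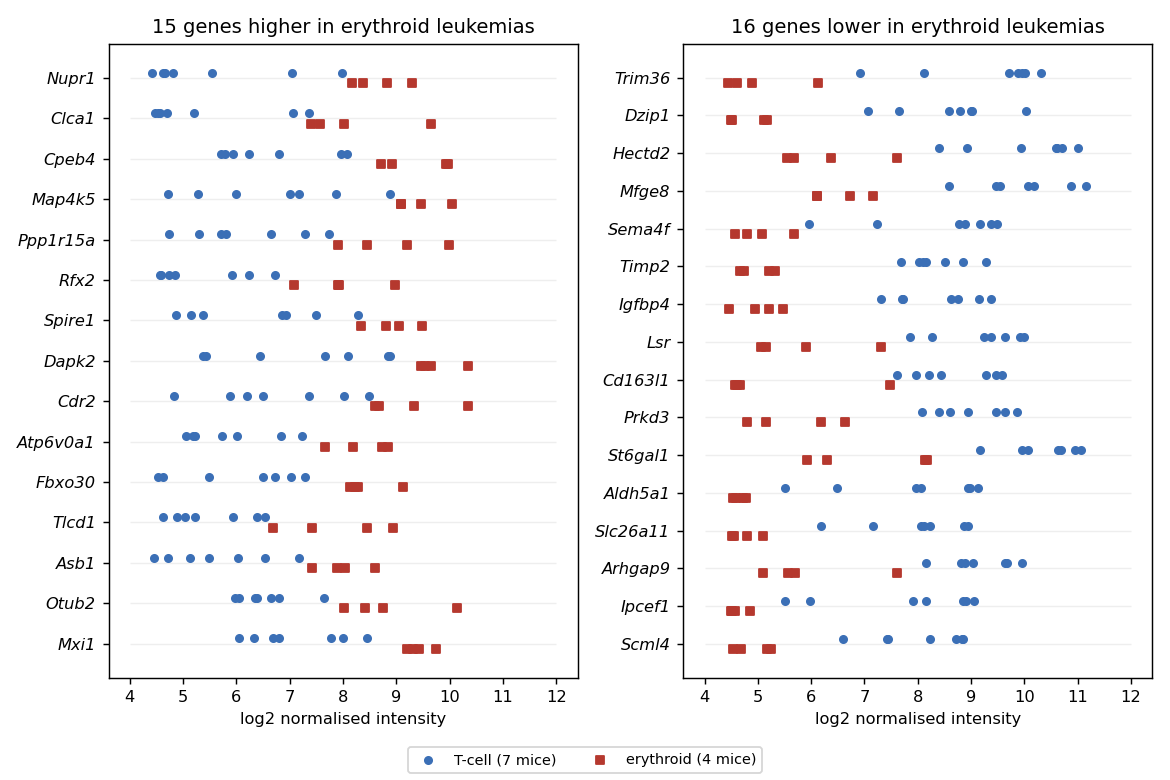
Log2 normalised intensity (x axis) of 15 of the 16 genes with the largest rise (left) and the 16 with the largest fall (right) outside both lists, with 1 point for each of 7 T-cell (blue circles) and 4 erythroid mice (red squares). The groups were required not to overlap, and for many genes on the right the erythroid mice lie near 5 on the scale, close to background.

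Several of these genes act in ubiquitin ligation or at the cilium base. Trim36, a ubiquitin ligase of the Trim family, had the largest fall. It was at 6.92 to 10.32 (median 9.88) in T-cell mice and 4.89, 6.13, 4.43 and 4.61 in erythroid mice, a change of -4.26 ± 0.61 (SE, limma adjusted p = 0.00251). Mouse 5-1 was its lowest T-cell mouse. Other Trim36 probes fell less, by 2.56 and 1.97 (adjusted p = 0.0124 and 0.0158), and 1, at -1.64, did not pass (adjusted p = 0.0515). Hectd2, a ligase of the Hect class, was at 8.40 to 11.00 (median 10.59) against 5.54, 6.38, 7.61 and 5.68, a fall of 3.72 ± 0.54 on the log2 scale (adjusted p = 0.00261). Dzip1, a zinc finger protein of the cilium base, was at 7.07 to 10.02 (median 8.79) against 5.17, 5.12, 4.50 and 4.51. It fell by 3.76 ± 0.46 (adjusted p = 0.00120), and 3 of 5 erythroid arrays did not detect it.

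Other genes act outside the cell or at its surface. Mfge8, a secreted bridge between phosphatidylserine on dying cells and the integrins of phagocytes, was at 8.58 to 11.15 (median 10.07) in T-cell and 6.11, 7.15, 6.11 and 6.73 in erythroid mice. It fell by 3.45 ± 0.44 (SE, adjusted p = 0.00144). Timp2, an inhibitor of matrix metalloproteinases, had the smallest adjusted p of the 16 (0.000528). Its T-cell values of 7.68 to 9.27 (median 8.15) and its erythroid values of 5.21, 5.33, 4.67 and 4.73 were both narrow, and the fall was 3.38 ± 0.30. Igfbp4, which binds insulin-like growth factors outside the cell, was at 7.32 to 9.37 (median 8.63) against 5.47, 4.94, 5.21 and 4.45 (-3.36 ± 0.40, adjusted p = 0.00118). All 3 encode secreted proteins, and all 3 were lowest in T-cell mouse 2-2 or 4-1. Sema4f, a semaphorin, fell by 3.38 ± 0.60 (adjusted p = 0.00726) and Lsr, a lipoprotein receptor that is also found at cell junctions, by 3.32 ± 0.50 (adjusted p = 0.00328). A second Lsr probe changed by -0.96 and did not pass (adjusted p = 0.0919). Cd163l1, a receptor of the scavenger receptor cysteine-rich family, was at 7.61 to 9.57 (median 8.44) in T-cell mice. Erythroid mouse 5-5, at 7.48, came close to this range, and the other erythroid mice were at 4.62, 4.57 and 4.67 (-3.32 ± 0.57, adjusted p = 0.00628). St6gal1, the enzyme that caps surface glycans with sialic acid, was at 9.17 to 11.06 (median 10.62) against 8.17, 6.30, 8.13 and 5.92 (-3.23 ± 0.49, adjusted p = 0.00328).

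The rest act in signalling, metabolism, transport or the nucleus. Prkd3, a protein kinase D activated by diacylglycerol, was at 8.08 to 9.87 (median 8.94) against 6.18, 6.63, 4.80 and 5.16, a fall of 3.30 ± 0.42 (SE, adjusted p = 0.00144). Of its other probes, 1 fell by 3.47 and 1, at -1.09, did not pass (adjusted p = 0.0603). Arhgap9, a GTPase-activating protein, was at 8.16 to 9.95 (median 9.03) against 7.61, 5.56, 5.09 and 5.70. It fell by 3.17 ± 0.46 (adjusted p = 0.00261), with mouse 2-3 nearest to the T-cell range. Aldh5a1, which oxidises succinic semialdehyde, fell by 3.21 ± 0.61 (adjusted p = 0.00953), and Slc26a11, an anion transporter, by 3.20 ± 0.45 (adjusted p = 0.00251). Scml4, a relative of the polycomb protein Scm, was at 6.59 to 8.86 (median 8.22) against 5.16, 5.25, 4.53 and 4.69 (-3.10 ± 0.42, adjusted p = 0.00199). Kif21b, a kinesin, and Bdh1, an enzyme of ketone body metabolism, were named for a small adjusted p. Kif21b fell by 2.86 ± 0.31 (adjusted p = 0.000916) and Bdh1 by 2.70 ± 0.31 (adjusted p = 0.00105).

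Some genes were measured in the T-cell spleens alone. Detection on every T-cell array and on no erythroid array was found for 32 genes, of which 28 were outside both lists and 22 passed the threshold. Without the 2 weakest erythroid arrays, which detect few dim probes, there were 41 such genes, and with a detection p under 0.01 there were 45. For these genes the erythroid level is only a bound, and the fold is given against the detection floor of the erythroid arrays. Ipcef1, a partner of exchange factors of Arf GTPases, was at 5.51 to 9.05 (median 8.16) in T-cell mice, at least 5.21-fold higher than the floor (adjusted p = 0.0114). Ramp1, which turns the calcitonin-like receptor into a receptor for the neuropeptide CGRP, was at 6.57 to 8.48 (median 7.31), at least 4.29-fold higher (adjusted p = 0.00104). Sall2, a zinc finger factor, and Inpp4b, a phosphatase of inositol lipids, were each at least 4.21-fold higher (adjusted p = 0.00551 and 0.0225). In both, mouse 2-2 or 5-1 was far below the median of the T-cell mice: Sall2 ran from 5.30 to 8.29 (median 7.90) and Inpp4b from 5.01 to 9.13 (median 8.05).

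Outside both lists, the next largest bounds were those of Enc1, a kelch protein that binds actin (at least 3.10-fold, adjusted p = 0.00251), and Slc2a9, a urate transporter (at least 3.09-fold, adjusted p = 0.00285). A second Slc2a9 probe changed by -0.33 and did not pass (adjusted p = 0.2995). Slc9a9, a proton exchanger of endosomes, followed with at least 2.78-fold (adjusted p = 0.0130). Sox13, a factor known from mouse gamma-delta T cells, was at 5.83 to 7.64 (median 6.88) and at least 2.64-fold higher (adjusted p = 0.00251). In the opposite direction, 1 gene was detected on every erythroid array and on no T-cell array. Npcd was at 5.00, 6.05, 6.16 and 5.06 against 4.55 to 4.77, at least 1.55-fold higher (adjusted p = 0.0406), and not past the threshold under median scaling (adjusted p = 0.169). Without the 2 weakest arrays 7 genes met this condition, and with a detection p under 0.01 there were 0. On all arrays of both types, 3786 genes were detected.

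Genes were then grouped by function and by family: 17 lists of functions and 45 families defined by their symbols. The shares of all genes tested, 3.86% higher and 6.41% lower, stand as the background for each count. Members of a family share sequence and often partners, so they are not independent of each other.

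**Figure D4:**
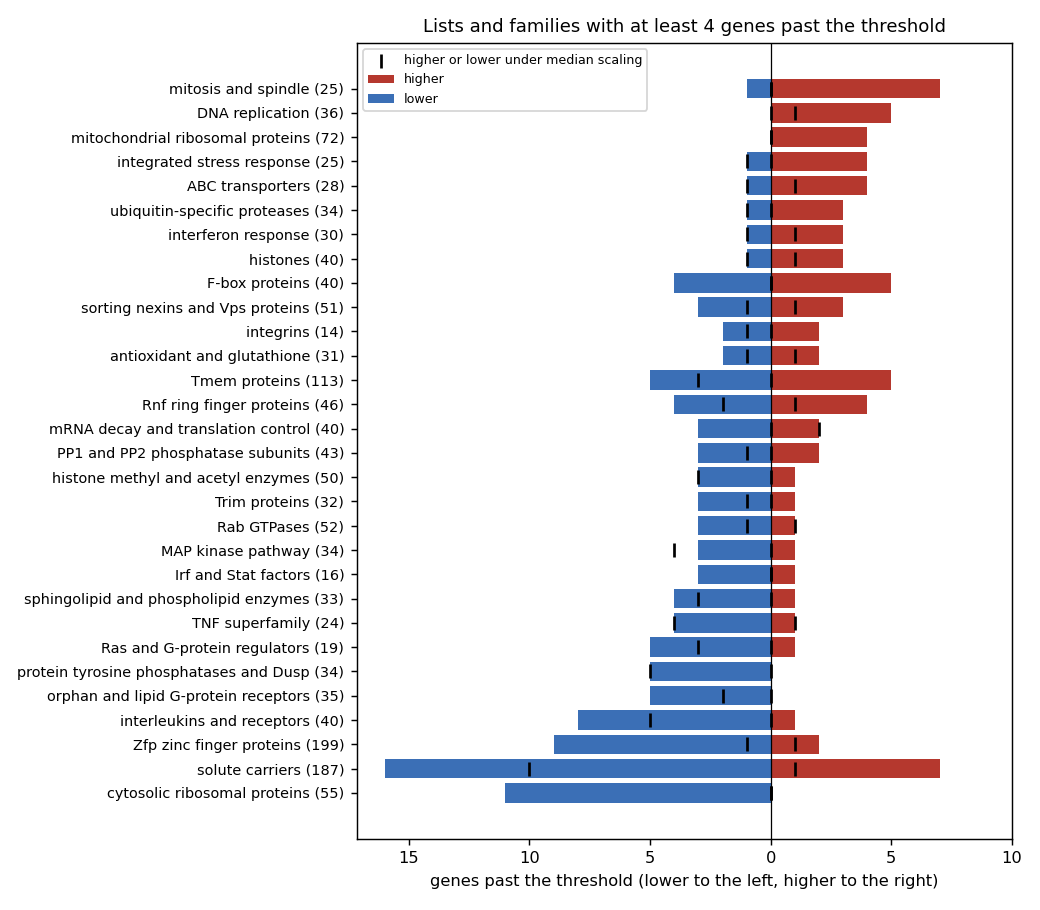
Number of genes past the threshold that were lower (blue, left) and higher (red, right) in erythroid leukemias for 30 lists and families with at least 4 such genes, with the number of genes tested in parentheses. Black marks give the numbers under median scaling: they stay at 5 lower for tyrosine and dual-specificity phosphatases and go to 0 for cytosolic ribosomal proteins and for genes of mitosis.

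Receptors and their signalling enzymes also had more lower than higher members. Of 34 tyrosine and dual-specificity phosphatases, 5 were lower and 0 higher, and 5 were lower under median scaling too. Dusp6, which dephosphorylates Erk kinases, was at 9.20 to 9.85 (median 9.56) in T-cell mice, a range of less than 1 log2 unit, and 7.63, 7.88, 6.76 and 6.36 in erythroid mice (-2.41 ± 0.29 SE, adjusted p = 0.00120). Ptprc, the CD45 phosphatase of white blood cells, fell by 1.78 ± 0.32 (adjusted p = 0.00769). Of 40 interleukins and their receptors, 8 were lower and 1 higher, but 4 of these 8 belong to the T-cell list. Il6st, the shared receptor chain of the interleukin-6 family and no member of the list, was at 5.38 to 7.20 (median 6.85) against 5.01, 4.44, 4.45 and 4.45 (-1.96 ± 0.34, adjusted p = 0.00686). The higher member was Il10rb, a chain of the interleukin-10 receptor (1.38 ± 0.30, adjusted p = 0.0152). Of 35 orphan and lipid G-protein receptors, 5 were lower and 0 higher, among them Gpr18 (-2.81 ± 0.56, adjusted p = 0.0111), P2ry10 (-2.47 ± 0.54, adjusted p = 0.0159) and S1pr2, a receptor for sphingosine phosphate (-2.20 ± 0.45, adjusted p = 0.0119). Of these 5, 2 passed under median scaling. Other P2ry10 probes, at -1.35 and -1.52, did not pass (adjusted p = 0.1075 and 0.0867).

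Of 24 members of the TNF family 4 were lower and 1 higher (16.7% and 4.17%), and the counts were 4 and 1 under median scaling too. Outside both lists 3 of 21 were lower and 1 higher. Tnfsf8, the CD30 ligand, was at 5.79 to 9.77 (median 8.87) against 5.03, 5.29, 6.42 and 4.62, so that mouse 2-3-2 overlapped the T-cell range (-2.94 ± 0.62 SE, adjusted p = 0.0137). Lta, lymphotoxin alpha, fell by 1.56 ± 0.35 (adjusted p = 0.0181). Tnfrsf14, the receptor of the lymphocyte ligand LIGHT, rose by 1.68 ± 0.43 (adjusted p = 0.0284). Its ligand, Tnfsf14, fell by 2.13 ± 0.59 (adjusted p = 0.0382), with the groups overlapping. Of the other Tnfsf14 probes, 1 fell by 1.53 (adjusted p = 0.0499) and 1, at -0.0015, did not pass (adjusted p = 0.998). In the kinase cascades, Map4k4 fell by 2.57 ± 0.52 (adjusted p = 0.0115) while its relative Map4k5 rose. Map4k4 was at 8.74 to 10.98 (median 9.47) in T-cell and 6.31, 7.64, 8.60 and 6.13 in erythroid mice. In all, 3 of 34 genes of these cascades were lower and 1 higher, or 8.82% and 2.94%, near the 6.41% and 3.86% of all genes.

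Polycomb complex 1, to which the overexpressed protein belongs, had 3 lower and 0 higher among 16 tested genes, a share of 18.8% lower beside 6.41% of all genes, and 3 were lower under median scaling. Cbx6, a chromobox relative of Cbx7, was at 9.87 to 11.40 (median 10.74) against 7.90, 9.89, 8.19 and 7.85, so mouse 5-5 touched the T-cell range (-2.25 ± 0.39 SE, adjusted p = 0.00681). Bmi1, a ring finger subunit, was at 5.82 to 7.01 (median 6.47) against 5.66, 4.44, 4.50 and 5.18. It fell by 1.61 ± 0.30 (adjusted p = 0.00890). Among other chromatin genes, Hdac4, Hdac5 and Nsd1 were lower and Dot1l higher among 50 histone-modifying enzymes. These shares, 6% lower and 2% higher, were below the 6.41% and 3.86% of all genes. Dnmt3a, Tet2 and Zbtb38 were lower among 19 genes of DNA methylation: Tet2 fell by 1.86 ± 0.44 (adjusted p = 0.0217) and Dnmt3a by 1.70 ± 0.45 (adjusted p = 0.0324). A second Dnmt3a probe changed by -0.56 and did not pass (adjusted p = 0.137). H1f0, the replacement linker histone, fell by 2.62 ± 0.40 (adjusted p = 0.00328), while H1f1, a replication-dependent one, rose by 2.12 ± 0.46 (adjusted p = 0.0159). Of 24 chromatin remodellers 0 passed in either direction, beside 10.3% of all genes.

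Genes of cell division had more higher members, but not under every scaling. Of 25 mitosis genes 7 were higher and 1 lower, with a median change of 0.67, and 0 passed under median scaling. Hmmr, a spindle protein, was at 8.23, 8.69, 7.95 and 8.30 in erythroid and 6.08 to 7.58 (median 6.74) in T-cell mice (1.53 ± 0.32 SE, adjusted p = 0.0125). Tpx2, which activates Aurora A on the spindle, rose by 1.26 ± 0.32 (adjusted p = 0.0295), and its T-cell values ran up to 8.29 in mouse 5-1, above erythroid mouse 2-3 at 8.07. Mouse 5-1 was also the highest T-cell mouse for Hmmr, Anln and Prc1. The lower member was Cep55, which acts in the last step of cell division (-1.75 ± 0.44, adjusted p = 0.0280). Of 36 genes of DNA replication 5 were higher and 0 lower. Pole2, a subunit of polymerase epsilon, rose by 1.92 ± 0.41 (adjusted p = 0.0146) and was the 1 that passed under median scaling (adjusted p = 0.0146). Mcm10, an initiation factor, was at 7.57, 7.91, 8.77 and 7.72 against 5.64 to 7.48 (median 6.04), a rise of 1.70 ± 0.35 (adjusted p = 0.0126). Ccne2, a cyclin of the entry into S phase, rose by 1.48 ± 0.28 (adjusted p = 0.00952).

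Ribosomal proteins were counted by compartment. Of 55 cytosolic ribosomal proteins 11 were lower and 0 higher, with a median change of -0.51, while of 72 mitochondrial ribosomal proteins 4 were higher (5.56%, beside 3.86% of all genes) and 0 lower, with a median of -0.05. None of these 15 passed under median scaling, although the median changes there were -0.72 and -0.32, beside -0.22 for all genes. Under cyclic loess 10 cytosolic ones were lower and 3 mitochondrial ones higher. Rpl12 was at 11.62 to 12.18 (median 11.97) against 11.43, 10.82, 10.62 and 11.36, a fall of 0.89 ± 0.22 (SE, adjusted p = 0.0269). Rpl27 fell by 1.82 ± 0.49 (adjusted p = 0.0347), with 10.81, 9.57, 7.26 and 9.71 in erythroid mice. The value of 7.26 belongs to mouse 2-3-2, whose array was weak. Mrps7, of the small mitochondrial subunit, was at 9.44, 10.01, 10.24 and 9.60 against 8.48 to 9.13 (median 8.94), a rise of 0.98 ± 0.22 (adjusted p = 0.0186). A second Mrps7 probe changed by -0.34 and did not pass (adjusted p = 0.697).

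Metabolism and transport gave single genes more than groups. Of 187 solute carriers 16 were lower and 7 higher, 8.56% and 3.74%, near the background of 6.41% and 3.86%. Pkm, the pyruvate kinase of most tissues, was the 1 of 16 glycolysis genes to pass. It was at 8.53 to 10.13 (median 9.73) against 8.36, 7.55, 7.44 and 7.89 (-1.76 ± 0.33 SE, adjusted p = 0.00854). In lipid synthesis Acly, which makes cytosolic acetyl-CoA, fell by 1.86 ± 0.32 (adjusted p = 0.00597), and Srebf1 and Lss were lower, among 26 genes with 0 higher. Cers5, a ceramide synthase, was at 8.08 to 9.73 (median 9.57) against 7.42, 5.85, 5.14 and 6.38 (-2.98 ± 0.43, adjusted p = 0.00261). Rab27a, which guides secretory lysosomes to the membrane, fell by 2.39 ± 0.28 (adjusted p = 0.00105) and was at 8.92 to 10.06 against 7.50, 6.92, 6.84 and 6.89. Of 28 autophagy genes 2 were higher, Ulk1 (1.30 ± 0.31, adjusted p = 0.0226) and Atg4a (1.51 ± 0.43, adjusted p = 0.0435), and Ulk2, the relative of Ulk1, was lower (-1.25 ± 0.35, adjusted p = 0.0419). Both are kinases that start autophagy, and Ulk1 is the one known for clearing mitochondria from mouse reticulocytes. A second Ulk2 probe changed by -0.24 and did not pass (adjusted p = 0.568). The autophagy list had 7.14% higher and 3.57% lower, beside 3.86% and 6.41% of all genes.

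Interferon-induced genes were mixed. Ifit1, an antiviral RNA-binding protein, was at 6.40, 9.25, 7.58 and 7.07 against 4.48 to 6.48 (median 4.76), a rise of 2.62 ± 0.50 (SE, adjusted p = 0.00953) that passed under median scaling (adjusted p = 0.0411). Irf9 and Ifih1 were also higher and Psmb8, a subunit of the immunoproteasome, was lower, among 30 tested. Bcl2l1, the survival protein that maturing red cells depend on in mice, was the 1 of 12 Bcl2 family genes to pass. It was at 8.28, 10.61, 10.11 and 8.66 against 5.49 to 8.29 (2.39 ± 0.59, adjusted p = 0.0253), and mouse 2-2 marked the upper end of the T-cell range.

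Families with no gene past the threshold were as much a part of the comparison. In 7 of the 62 lists and families 0 genes passed in limma, among them the 11 Kruppel-like factors tested, 10 genes of the NF-kB family, 13 class I histocompatibility genes, 30 potassium and Trp channels and 12 cathepsins. For lists of 10 to 13 genes this is near the 10.3% of all genes that passed. It does not show that their members were unchanged. Over all genes, the 95% interval of the change lay within 1 log2 unit of 0 for 4104 genes (39.2%), so a difference over 2-fold lay outside it. For 199 genes it lay within 0.5. For 227 genes the interval held both -1 and 1, so a 2-fold change in either direction lay inside it. Kdelr1, which returns proteins to the endoplasmic reticulum, was at 10.98 to 11.30 in T-cell and 11.16, 11.10, 10.94 and 11.11 in erythroid mice (-0.08 ± 0.17 SE, adjusted p = 0.789). Other narrow intervals say less, since Rpl23 and the probes listed as Ctcfl and BC030476 sat at the top of the intensity scale and Mcoln1 near background.

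Lists of genes of other blood cells were examined in the same way. Of 14 granulocyte genes and 15 monocyte and macrophage genes, 0 passed in limma, beside 10.3% of all genes. The mean of the granulocyte genes ran from 5.05 to 9.12 in T-cell and from 5.32 to 8.14 in erythroid mice, highest in T-cell mouse 2-2 and erythroid mouse 2-3. S100a9, a calcium-binding protein of neutrophils, ranged from 5.61 to 12.35 in T-cell mice and was at 11.70, 9.72, 5.25 and 9.55 in erythroid mice. Mcpt8, a basophil protease, ranged from 4.40 to 10.42 and was at 9.05, 4.59, 6.30 and 8.94. For both genes the types overlapped. The mean of the megakaryocyte and platelet genes ran from 5.16 to 6.37 in T-cell mice, highest in mouse 2-2, and from 5.80 to 6.87 in erythroid mice. Of these 13 genes 2 were higher, F2rl2 and Itga2b, and of 11 genes of antigen-presenting cells 2 were lower, H2-DMa and H2-DMb2. Of 12 B-cell genes Btk was higher and Cd37 lower.

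**Figure D5:**
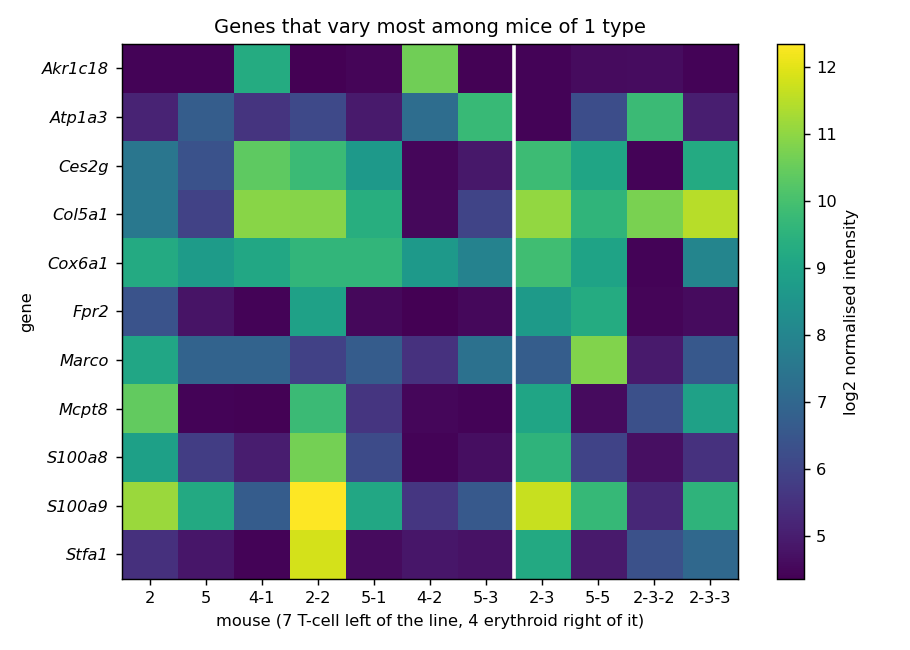
Log2 normalised intensity (colour) of the 11 genes with the largest SD within a leukemia type outside both lists, for each mouse (columns). S100a9, S100a8 and Stfa1 are brightest in T-cell mouse 2-2, and Cox6a1 is at 4.42 in erythroid mouse 2-3-2 and at 8.00 or above in the other erythroid mice.

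Spread was larger in erythroid mice for 6895 genes (65.8%), with a median SD of 0.57 against 0.41 in T-cell mice. Both weak arrays, with 7382 and 7554 detected probes, came from erythroid mice, and their part in this spread was not tested. The model used 1 variance for both types, so its errors may be too small where the erythroid spread was larger. Akr1c18, an enzyme that inactivates progesterone, varied widely among T-cell mice: it had a median of 4.45, near background, and was at 9.27 in mouse 4-1 and 10.61 in mouse 4-2. Marco, a scavenger receptor of spleen macrophages, was at 10.83 in mouse 5-5 and at 6.70, 4.93 and 6.54 in mice 2-3, 2-3-2 and 2-3-3. Cox6a1, a subunit of cytochrome oxidase, was at 9.89, 9.00, 4.42 and 8.00, and the low value came from the weak array of mouse 2-3-2. Col5a1, a collagen chain, was at 4.53 to 10.94 in T-cell and 11.06, 9.58, 10.73 and 11.48 in erythroid mice. The difference of 2.82 ± 1.13 (SE, adjusted p = 0.126) did not pass the threshold in spite of its size.

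Neighbouring genes that were called in the same direction were listed after their values were seen, with the gene order of the RefSeq mouse assembly GRCm38.p6 for the 9852 genes placed. The longest run held 5 adjacent tested genes, Ssr4 (-0.97), Avpr2 (-1.32), Arhgap4 (-1.63), Naa10 (-0.88) and Renbp (-1.86), all lower on the log2 scale. The others held 3 genes each. Among the lower runs were Cd3g, Cd3d and Cd3e, then Appl1, Il17rd and Arhgef3, and also Ubac2, Gpr18 and Gpr183. Further lower runs are not listed here. The 1 higher run was Mad2l1bp (2.05), Gtpbp2 (1.19) and Polh (0.92).

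Promoters were read for short motifs of factors known in red cells and T cells. RefSeq (GRCm38.p6) gave a promoter of 300 bases, from 250 before to 50 after the gene start, for 7935 of the genes tested. The first promoter listed was used for the 1641 genes with several. The letters AGATAA, bound by GATA factors, were found on either strand in 7.06% of these promoters, in 6.88% of 320 higher genes and in 5.03% of 497 lower genes. TGTGGT, of Runx factors, was in 13.1%, 12.5% and 14.3%. CCACACC, of Kruppel-like factors, was in 7.13%, 6.25% and 8.45%. CAGGTG, 1 form of the E-box, was in 17.1%, 15.6% and 21.5%. All 4 shares of the higher genes lay within 2 percentage points of all promoters. Of the lower genes, the shares of AGATAA and CAGGTG lay further away. CCGGAAG, of Ets factors, was in 18.8%, 17.5% and 14.49%, and CTTTGA, of Tcf factors, in 12.68%, 11.25% and 9.66%. Other motifs were read as well and are not given here. A match is a description of the letters and not a site.

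Of the 39 genes named for size or adjusted p, 29 had a promoter in the table. The promoters of a whole chromosome were left out of this reading, so the counts below may miss genes among the 29. Stretches are shown for 2 motifs to make plain that genes of both directions hold the same letters. AGATAA was found upstream of the start in 3 of the genes read, of which Ppp1r15a was higher and Cd163l1 and St6gal1 were lower in erythroid leukemias. They lie at chr7:45526438-45526473 (minus strand), chr7:140218103-140218138 (plus) and chr16:23224636-23224671 (plus), in GRCm38.p6. Each is given 5′ to 3′ on the strand of the gene, with the motif or its complement in capitals.
Ppp1r15a: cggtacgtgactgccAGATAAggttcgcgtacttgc
Cd163l1: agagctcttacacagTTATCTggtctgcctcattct
St6gal1: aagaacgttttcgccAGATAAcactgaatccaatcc

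CCACACC was found in 5 of the genes read, of which Narf and Otub2 were higher and Igfbp4, Ramp1 and Sema4f lower. The stretches of Narf, Otub2, Igfbp4 and Ramp1 lie at chr11:121237132-121237168, chr12:103376715-103376751, chr11:99041182-99041218 and chr1:91179732-91179768, all on the plus strand of GRCm38.p6, and the capitals again mark the motif or its complement.
Narf: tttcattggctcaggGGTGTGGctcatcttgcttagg
Otub2: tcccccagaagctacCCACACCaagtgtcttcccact
Igfbp4: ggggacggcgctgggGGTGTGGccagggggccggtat
Ramp1: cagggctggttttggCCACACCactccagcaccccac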

How the data were processed

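The authors deposited bead intensities with detection p-values of 25697 probes on each of 15 arrays, not normalized between arrays, and a table of processed log2 values made with limma and R 3.0.2, per the submitters' processing notes. Which software made the intensities was not given in the sources used here. From the intensities, neqc of limma 3.58.1 in R 4.3.3 (negative controls inferred from the detection p-values, offset 16, quantile normalization over 15 arrays) gave log2 values. Probes detected (p under 0.05) on at least 3 of 14 labelled arrays were kept (14432), arrays of a mouse were averaged, and the probe with the highest mean stood for a gene. Models were fitted with lmFit and eBayes to 12 mice (the third type, 1 undifferentiated mouse, added only its own mean), with two-sided p-values adjusted over 10474 genes. A fold of a gene that no array of a type detected is a bound against the detection floor.

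Symbols were updated through RefSeq (GRCm38.p6, used for names and gene order); 1061 probes had no match and kept the file's symbol. For Traf4 the probes passed in opposite directions, and in 373 genes measured by more than 1 probe the call depended on the probe. Some named genes are among these, and other probes are not described for each of them. Genes were named by size (16 higher and 16 lower outside both lists with no overlap between mice and an informative symbol), and so were the 4 with the smallest adjusted p, up to 4 members of each list in each direction, the largest detection bounds, the narrowest intervals, the largest SDs, and the marker genes; the exceptions in both marker lists, members of the other-cell lists and neighbouring genes were named after their values were seen. The members, the lists, the families and the naming rule were chosen with earlier results of these data known, and some family patterns were narrowed afterwards. The number of arrays limits the precision. On simulated data, 15 of 50 genes changed by 1 log2 unit and 43 of 50 changed by 2 were recovered for erythroid minus T-cell over 10474 genes. The simulated mice were independent, had the same SD in both types and included no weak array. Recovery in the real data may therefore differ. Deviations from the type mean had a median r of 0 over 9 erythroid and T-cell pairs with the same leading number (-0.294 to 0.384). Over 19 other such pairs the median was 0.024, and the numbers were not used as pairs. Centring within each type draws these r values towards 0, and pairs within a type were not examined. This check therefore cannot show that mice with shared numbers are independent. The labels do not say what the numbers mark. Some named genes and 1 list are not reported here.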

Additional observations from a re-analysis of the deposited data

Results flagged for a closer look

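In 12 of 254 groups of values (127 named genes in 2 types), 1 mouse stood apart from the others of its type by Dixon's test, and chance gives about 1 in 20. Erythroid mouse 5-5 stood apart for Cd163l1, at 7.48 against 4.57 to 4.67 in the other erythroid mice, for Cbx6, at 9.89 against 7.85 to 8.19, for Fbxo30, at 9.12 against 8.13 to 8.28, and for Abcb9, at 7.01 against 4.81 to 4.95. Erythroid mouse 2-3 stood apart for Il6st, at 5.01 against 4.44 to 4.45, and for Rab27a, at 7.50 against 6.84 to 6.92.

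T-cell mouse 2-2, the one with the highest red-cell mean of its type, stood apart for Ifit1, at 6.48 against 4.48 to 4.92, for Itga2b, the platelet integrin chain, at 6.18 against 4.47 to 4.90, and for Stfa1, a stefin of neutrophils, at 11.83 against 4.44 to 5.47. The probe listed as BC030476 was at 14.33 in T-cell mouse 4-1 and 13.90 in erythroid mouse 5-5 against 14.07 elsewhere, and the probe listed as Ctcfl was at 14.07 in T-cell mouse 4-1 against 14.33.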

How the results depend on the processing

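Counts are given as higher and lower genes over all genes, then outside both lists. Against 404 and 671 (360 and 628), median scaling gave 44 and 387 (39 and 352), cyclic loess 444 lower (416), no filter on dim probes 187 and 389 (170 and 364), dropping the 2 weakest erythroid arrays 232 and 359 (213 and 330), and array weights 942 and 1051 (875 and 1001). The number of detected probes as a covariate left 59 and 197 (53 and 172). The leading number of the mouse titles as a fixed block left 11 and 98 (8 and 84). Within arrays 1 to 8 limma called 0 and 0 (0 and 0), and within arrays 9 to 16 it called 44 and 135 (39 and 116). The causes of these differences were not tested, except that the fits within arrays hold fewer mice. Other settings kept all 4 counts within 1.5 times. Leaving out 1 mouse gave 141 to 595 higher and 319 to 893 lower genes (125 to 543 and 291 to 858). The counts fell most without T-cell mice 2 (171 and 366), 5 (149 and 344), 4-2 (182 and 395) and 5-3 (217 and 439), and erythroid mice 5-5 (141 and 319), 2-3-2 (187 and 371) and 2-3-3 (213 and 422). Genes detected on every erythroid and no T-cell array numbered 1, against 0 with a detection p under 0.01 and 7 without the 2 weakest arrays. Narrowing the interval around 0 from 1 to 0.5 took the genes within it from 4104 to 199. None of the genes named by the rule that passed the threshold changed sign in any setting. A dim probe on a weak array is bounded by that array's detection floor.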

Other observations

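Several families held members that moved apart. Of 28 ABC transporters 4 were higher and 1 lower in erythroid leukemias, or 14.3% and 3.57% beside 3.86% and 6.41% of all genes. Outside both lists 2 of 26 were higher and 1 lower. Abcb9, a peptide transporter of lysosomes, was at 6.59 to 8.12 in T-cell and 4.81, 7.01, 4.88 and 4.95 in erythroid mice (-2.08 ± 0.44 SE, limma adjusted p = 0.0133). Erythroid mouse 5-5 lay within the T-cell range. Of the other Abcb9 probes, 1 fell by 2.04 and 1, at -0.44, did not pass (limma adjusted p = 0.294). Abcg4, a sterol transporter, rose by 1.23 ± 0.35 SE (limma adjusted p = 0.0409), with overlap between the types. Of 46 Rnf ring finger proteins 4 were higher and 4 lower, or 8.7% each beside 3.86% and 6.41% of all genes. Rnf216 rose by 2.46 ± 0.58 SE (limma adjusted p = 0.0212), also with overlap. Other Rnf216 probes, at 0.48 and 0.51, did not pass (limma adjusted p = 0.284 and 0.206). Rnf166 was at 8.33 to 9.40 in T-cell and 8.08, 6.23, 4.44 and 6.80 in erythroid mice (-2.56 ± 0.51 SE, limma adjusted p = 0.0110), so the types did not overlap. Its lowest value came from mouse 2-3-2, whose array detected 7554 probes.

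Of 30 Ube2 conjugating enzymes 2 were higher and 1 lower, or 6.67% and 3.33% beside 3.86% and 6.41% of all genes. Ube2f, which passes the ubiquitin relative Nedd8 to cullins, was at 7.49 to 8.36 in T-cell and 8.57, 9.80, 10.22 and 9.66 in erythroid mice (1.57 ± 0.30 SE, limma adjusted p = 0.00959). Ube2d1 fell by 1.32 ± 0.27 SE (limma adjusted p = 0.0125). Ube2o, a member of the red-cell list, rose by 2.21 ± 0.60 SE (limma adjusted p = 0.0371), and T-cell mouse 2-2, at 10.62, lay above erythroid mice 2-3 and 2-3-3. Of 7 Gimap GTPases of lymphocytes 3 were lower and 0 higher, and outside both lists 2 of 6 were lower. Gimap9 was at 6.54 to 8.59 in T-cell and 6.46, 5.92, 5.99 and 5.80 in erythroid mice (-1.73 ± 0.34 SE, limma adjusted p = 0.0105).

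The spleen with undifferentiated leukemia, mouse 4-3, entered neither type. Of the 16 named genes with the largest rise in erythroid leukemias, its value lay inside the range of the T-cell mice for 10, inside that of the erythroid mice for 4 and between both for 2. Of the 16 with the largest fall, it lay inside the erythroid range for 10, between both for 4, inside the T-cell range for 0 and below all erythroid mice for 2, which were Ipcef1 and Scml4.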
